A study of Mus musculus with 10 samples.

Results

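Kinesins are motor proteins that walk along microtubules on ATP. The genes described here are the mouse protein-coding genes whose symbol is Kif followed by a digit in RefSeq's gene table for GRCm38.p6, an assembly that shares its chromosome positions with mm10. The rule found 38 genes among 21887 nuclear protein-coding genes and used no measured value. They were divided by textbook role into 13 mitotic kinesins, 13 transport kinesins and 12 others.

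The study mapped RNA in male mouse embryonic stem cells grown in serum and LIF. It asked where N6-methyladenosine (m6A) lies on RNA in cells without and with METTL3, the catalytic subunit of the main m6A writer of messenger RNA, and which RNAs are held by YTHDC1, the nuclear m6A reader. The groups were m6A immunoprecipitates of polyA RNA from Mettl3-KO cells (2 samples, with 2 inputs) and from Mettl3-WT cells (2 samples, with 2 inputs), and 1 pull-down of total RNA bound by Halo-tagged YTHDC1 from Halo-Ythdc1 knockin cells (RNA immunoprecipitation, RIP, with 1 input). The sources used here do not say how the knockout was made or whether it is 1 clone, and the cell type label of the Mettl3-KO samples reads WT. One list of peak positions was analysed for each kind of precipitate: 6764 knockout m6A peaks, 12368 wild-type m6A peaks and 30992 RIP peaks.

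The lists give positions alone, with no height, count, strand or value per sample. Replicate error is thus unknown for every comparison, and no test was made. The wild-type list is also named in the description of 1 knockout precipitate, so which samples fed each m6A list is not settled, and the loss of Mettl3 itself could not be checked from peak positions. The depth behind the peaks is unknown, so a gene without a peak is not shown to lack m6A or YTHDC1. In bulk RNA, fewer cells with a transcript and less of it per cell cannot be told apart. A knockout peak is a position listed as enriched in cells labelled Mettl3-KO, and whether such peaks mark m6A was not tested. Of 10 embryonic stem cell markers, 6 had a knockout m6A peak, 7 a wild-type m6A peak and 8 a RIP peak, against 18.2%, 30.3% and 42.2% of all protein-coding genes. Of 8 fibroblast markers, 1 had a knockout m6A peak (Thy1) and 1 a wild-type m6A peak and a RIP peak (Pdgfrb). The collagen genes Col1a1, Col1a2 and Col3a1 had none. Of 8 neuronal markers, 1 had a knockout m6A peak (Stmn2), 1 a wild-type m6A peak (Tubb3) and 6 a RIP peak. Peaks do not measure expression, so these counts do not settle the cell type.

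Mitotic kinesins build and position the spindle, move chromosomes and complete cytokinesis, and their messenger RNAs are made late in the cell cycle. Transport kinesins carry vesicles, organelles and ciliary cargo towards microtubule plus ends, several of them mainly in neurons. In cycling stem cells both kinds are used, whereas kinesins of motile cilia, sperm and specialised tissues are typically little expressed. m6A on messenger RNA is known for its place near stop codons and in long internal exons.

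Promoter sequences are shown first because several kinesins carried a knockout m6A peak or a RIP peak right at the gene start. Such peaks were no more frequent in kinesins than elsewhere. Within 200 bp of the span start lay 25% of kinesin knockout peaks and 3.95% of kinesin RIP peaks. In all protein-coding genes of known strand the shares were 28.8% and 4.76%. The windows below run from 70 bases upstream of the annotated start to 30 bases into the transcript, 5′ to 3′ on the gene's strand, and come from RefSeq (GRCm38.p6). Capitals mark the cell cycle homology region (CHR, searched as TTTGAA and its reverse complement TTCAAA) and the CCAAT box (searched as CCAAT and its reverse complement ATTGG). Proteins of the MuvB complexes are known to bind the CHR and time late cell cycle transcription, and NF-Y is known to bind the CCAAT box. The first 5 genes had a knockout m6A peak over this start, Kif4 and Kif11 had a wild-type m6A peak or a RIP peak that began 36 and 33 bp after it, and Kif16b had a RIP peak over it. Kif2c, whose knockout peak lay at its span start, has a table start 3728 bp from that peak's midpoint and is not shown.
Kif18b, chr11:102925095-102925194, minus strand: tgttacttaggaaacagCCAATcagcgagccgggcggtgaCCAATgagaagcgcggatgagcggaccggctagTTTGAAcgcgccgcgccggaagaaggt
Kif22, chr7:127042391-127042490, minus strand: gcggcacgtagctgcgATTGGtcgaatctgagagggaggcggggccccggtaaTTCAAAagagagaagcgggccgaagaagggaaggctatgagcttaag
Kif23, chr9:61946770-61946869, minus strand: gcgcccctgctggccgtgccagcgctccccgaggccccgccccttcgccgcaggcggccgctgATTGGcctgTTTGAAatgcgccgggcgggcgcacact
Kif14, chr1:136467778-136467877, plus strand: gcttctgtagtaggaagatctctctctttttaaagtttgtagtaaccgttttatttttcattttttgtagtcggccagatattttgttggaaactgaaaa
Kif3b, chr2:153291346-153291445, plus strand: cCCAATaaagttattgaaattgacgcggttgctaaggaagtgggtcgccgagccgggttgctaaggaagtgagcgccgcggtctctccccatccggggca
Kif4, chrX:100625995-100626094, plus strand: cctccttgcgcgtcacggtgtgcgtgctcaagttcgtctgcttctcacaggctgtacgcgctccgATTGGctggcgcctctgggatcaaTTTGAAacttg
Kif11, chr19:37376312-37376411, plus strand: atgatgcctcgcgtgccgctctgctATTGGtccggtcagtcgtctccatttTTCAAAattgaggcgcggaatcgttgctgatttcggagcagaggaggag
Kif16b, chr2:142901435-142901534, minus strand: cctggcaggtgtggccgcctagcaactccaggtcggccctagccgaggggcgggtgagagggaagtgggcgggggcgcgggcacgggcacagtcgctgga

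Among these windows both motifs were held by 5 mitotic kinesins, Kif18b, Kif22, Kif23, Kif4 and Kif11, and neither by the mitotic Kif14. Of the transport kinesins, Kif3b held a CCAAT box alone and Kif16b neither motif. Across the 31 kinesins with a promoter in the table, a CHR match within the 100-base window was found in 7 of 12 mitotic genes (Kif11, Kif15, Kif18b, Kif20b, Kif22, Kif23 and Kif4) and in 1 of 10 transport genes (Kif1a), besides Kif26b among the others. Of all 17492 protein-coding genes with a promoter in the table, 4.95% held a match there. A CCAAT match in the same window was found in 6 of 12 mitotic genes and 2 of 10 transport genes, against 19.8% of all protein-coding genes. Both motifs together were found in 5 mitotic genes and no transport gene, against 1.26% of all protein-coding genes. In the whole 300-base windows the CHR letters occurred in 9 mitotic genes and 1 transport gene, against 18.5% of all protein-coding genes. The CCAAT letters occurred there in 7 mitotic genes (58.3%) and 3 transport genes (30%), against 42.3% of all protein-coding genes. A match is a run of letters and not a shown binding site. The promoters of Kif13b, Kif19a, Kif20a, Kif21b, Kif28, Kif5a and Kif5b were not used here.

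A peak was counted for a gene when its midpoint lay in the gene span. Knockout m6A peaks were found in 12 of 38 kinesin genes (31.6%, against 18.2% of all protein-coding genes), wild-type m6A peaks in 17 (44.7%, against 30.3%) and RIP peaks in 26 (68.4%, against 42.2%). The genes held 20 knockout, 30 wild-type and 92 RIP peaks. Keeping only peaks at or above the median width of their list left 11 genes with a wild-type peak and 13 with a RIP peak. Kinesin genes are long, with a median span of 47.5 kb, against 17.2 kb for all protein-coding genes. Among the 18 kinesins with spans of 33.1 to 88.9 kb, the range between their quartiles, 22.2% had a knockout peak, 33.3% a wild-type peak and 72.2% a RIP peak. All protein-coding genes of those spans gave 22.9%, 41.6% and 57.7%. At like span the kinesin shares were thus near or below the background in the m6A lists and above it in the RIP list. Within the 38 kinesins the rank correlation of span and peak number was -0.358 (knockout m6A), 0.195 (wild-type m6A) and 0.302 (RIP). These values are given as a description, since span and peak number rest on the same annotated gene.

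The lists combined in different ways in different kinesins. The background shares here take in genes of all spans, which are mostly shorter than kinesins, and were not matched for span. Peaks of both m6A lists were found in 7 genes (18.4%, against 11.5% of all protein-coding genes), which were Kif14, Kif16b, Kif18b, Kif1c, Kif2c, Kif3b and Kif7. A wild-type peak without a knockout peak was found in 10 genes (26.3%, against 18.8%), and a knockout peak without a wild-type peak in 5 (13.2%, against 6.66%), which were Kif15, Kif22, Kif23, Kif26a and Kif3a. Of the 22 genes with an m6A peak in either list, 19 had a RIP peak as well (86.4%, against 74.3% of all protein-coding genes with an m6A peak), the exceptions being Kif20a, Kif3c and Kif7. RIP peaks alone were found in 7 genes (18.4%, against 14.8%): Kif18a, Kif21a, Kif21b, Kif5a, Kif5b, Kif5c and Kif9. No list held a peak in 9 genes (23.7%, against 48.3%): Kif12, Kif17, Kif19a, Kif1a, Kif26b, Kif27, Kif28, Kif2b and Kif6. Among these are Kif1a, the carrier of synaptic vesicle precursors, Kif19a, which sets the length of motile cilia, and the widest span of all, the 404 kb of Kif26b. A RIP peak crossed a span end of Kif20a, and another that of Kif28, with the midpoint outside, so neither was counted. By any overlap of peak and span, 28 kinesins had a RIP peak, against 26 by midpoint.

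**Figure D1:**
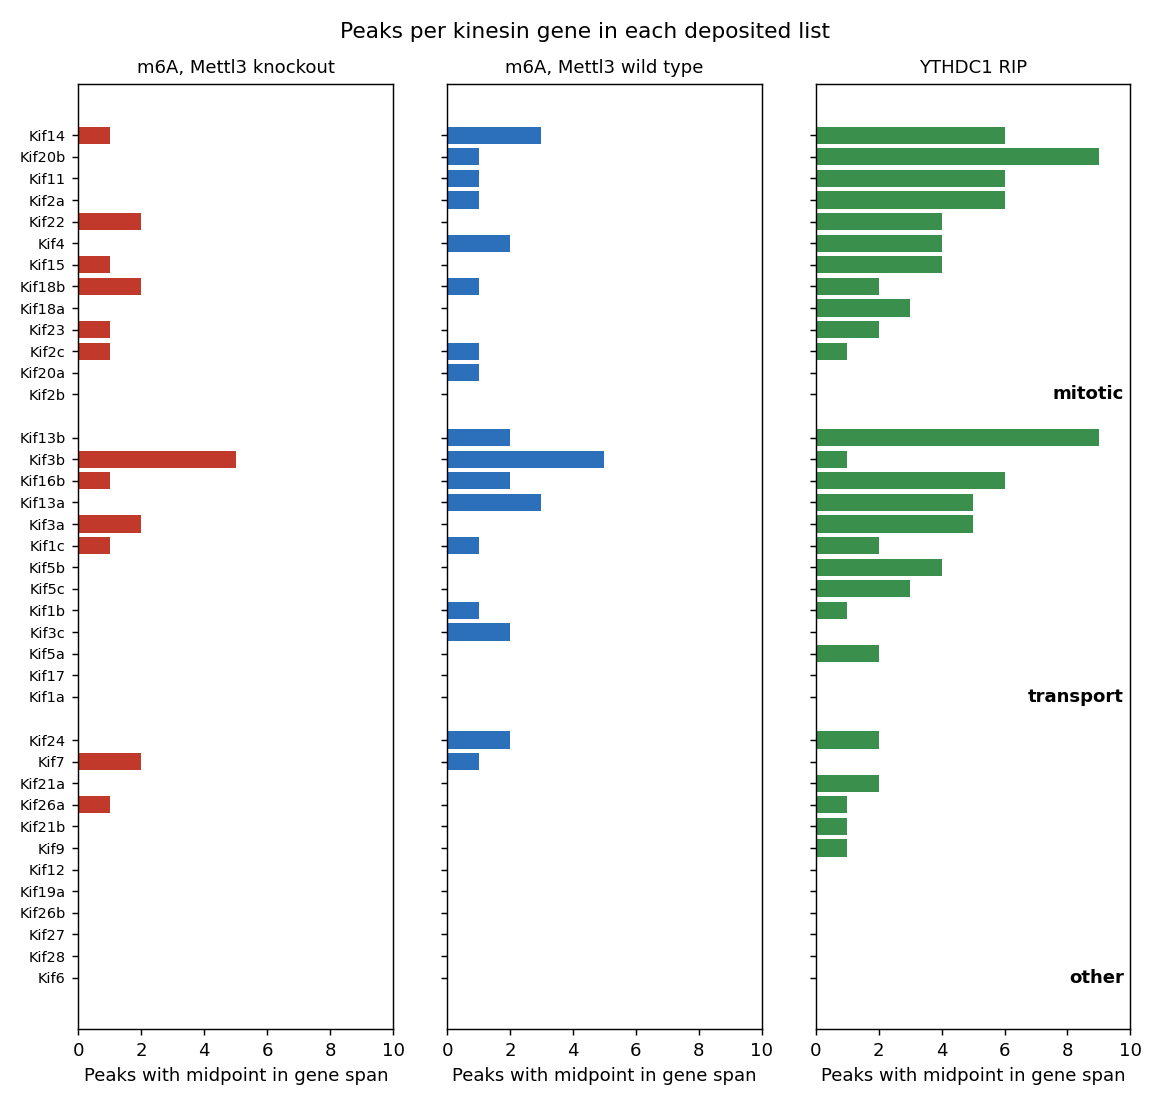
Number of peaks with midpoint in the span of each of the 38 kinesin genes (horizontal axis, peaks) in the knockout m6A, wild-type m6A and YTHDC1 RIP lists, with genes grouped as mitotic, transport and other and ordered within a group by total peaks. Kif3b leads both m6A lists with 5 peaks each, Kif13b and Kif20b lead the RIP list with 9 each, and 9 genes are empty in all lists.

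Kinesins that assemble and focus the spindle had mostly single m6A peaks. Kif11 slides antiparallel microtubules apart to make the spindle bipolar. It had no knockout peak, a 250 bp wild-type peak centred 1438 bp before the 3′ end of the span, and 6 RIP peaks, 1 of them 134 bp from the start. Kif15, its partner in keeping the spindle bipolar, had 1 knockout peak of 200 bp, no wild-type peak and 4 RIP peaks. Kif18a, which damps chromosome movements at the spindle equator, had no m6A peak and 3 RIP peaks. These 3 genes thus differed in their m6A lists while each carried RIP peaks.

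The microtubule-shortening kinesins of the spindle also differed among themselves. Kif2c, which corrects faulty attachments at centromeres, had a 300 bp knockout peak at the gene start (chromosome 4, 117182351 to 117182650, midpoint 124 bp inside) and a 550 bp wild-type peak at the opposite end (117159801 to 117160350, midpoint 442 bp from the 3′ end), with 1 RIP peak elsewhere in the gene. Kif18b, which acts with Kif2c on astral microtubules, had a 250 bp knockout peak at the start (chromosome 11, 102924901 to 102925150, midpoint 109 bp inside) and a 350 bp knockout peak in the gene body (102916251 to 102916600). Its single wild-type peak of 450 bp lay 2757 bp from the 3′ end. Both Kif18b knockout peaks overlapped a RIP peak, by 142 bp and 322 bp, and the wild-type peak overlapped none. Kif2a, which shortens microtubules at spindle poles and in neurons, had no knockout peak, 1 wild-type peak of 300 bp and 6 RIP peaks, 1 of which also lies in the span of Dimt1. Kif2b, a related depolymeriser, had no peak in any list.

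Chromokinesins and cytokinesis motors carried further start peaks. Kif22, which pushes chromosome arms away from the poles, had 2 knockout peaks, no wild-type peak and 4 RIP peaks. Its start peak (chromosome 7, 127042251 to 127042500) reached 80 bp upstream of the start shown above, its inner peak spanned 200 bp (127035801 to 127036000), and each lay on a RIP peak, sharing 192 bp and 200 bp. Kif23, which bundles midzone microtubules as a subunit of centralspindlin, had 1 knockout peak at the start (chromosome 9, 61946551 to 61946800, midpoint 135 bp inside), no wild-type peak and 2 RIP peaks of 66 bp and less, neither on the knockout peak. In Kif22 and Kif23 the start peak was thus in the knockout m6A list and not in the wild-type one, as in Kif18b, Kif2c and Kif3b. This was not particular to kinesins. In all protein-coding genes of known strand, 28.8% of knockout and 3.22% of wild-type peaks lay within 200 bp of the span start.

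Kif4, a chromokinesin of chromosome condensation and of the central spindle, had no knockout peak inside its span and 2 wild-type peaks. One lay at the start (chromosome X, 100626101 to 100626350, midpoint 160 bp inside) and shared 123 bp with a RIP peak, and the 550 bp one lay at the 3′ end (100726551 to 100727100), where the span of Gm52438 shares the position, as it does for 3 of the 4 RIP peaks of Kif4. Kif14, a motor of cytokinesis, had 3 wild-type peaks and 1 knockout peak (chromosome 1, 136467801 to 136468050) separated by 50 bp from its 850 bp wild-type peak (136468101 to 136468950). The knockout midpoint lay 1624 bp from the start of the span and 77 bp from a start in the promoter table. The 850 bp peak contained a whole 200 bp RIP peak, 1 of 6 RIP peaks in the gene. Kif20b, a late cytokinesis motor, had 1 wild-type peak of 150 bp and 9 RIP peaks. That number was reached by 0.626% of all protein-coding genes, not matched for span. Kif20a, another cytokinesis motor, had 1 wild-type peak of 300 bp, which also lies in the span of Cdc23 and cannot be assigned without strand.

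**Figure D2:**
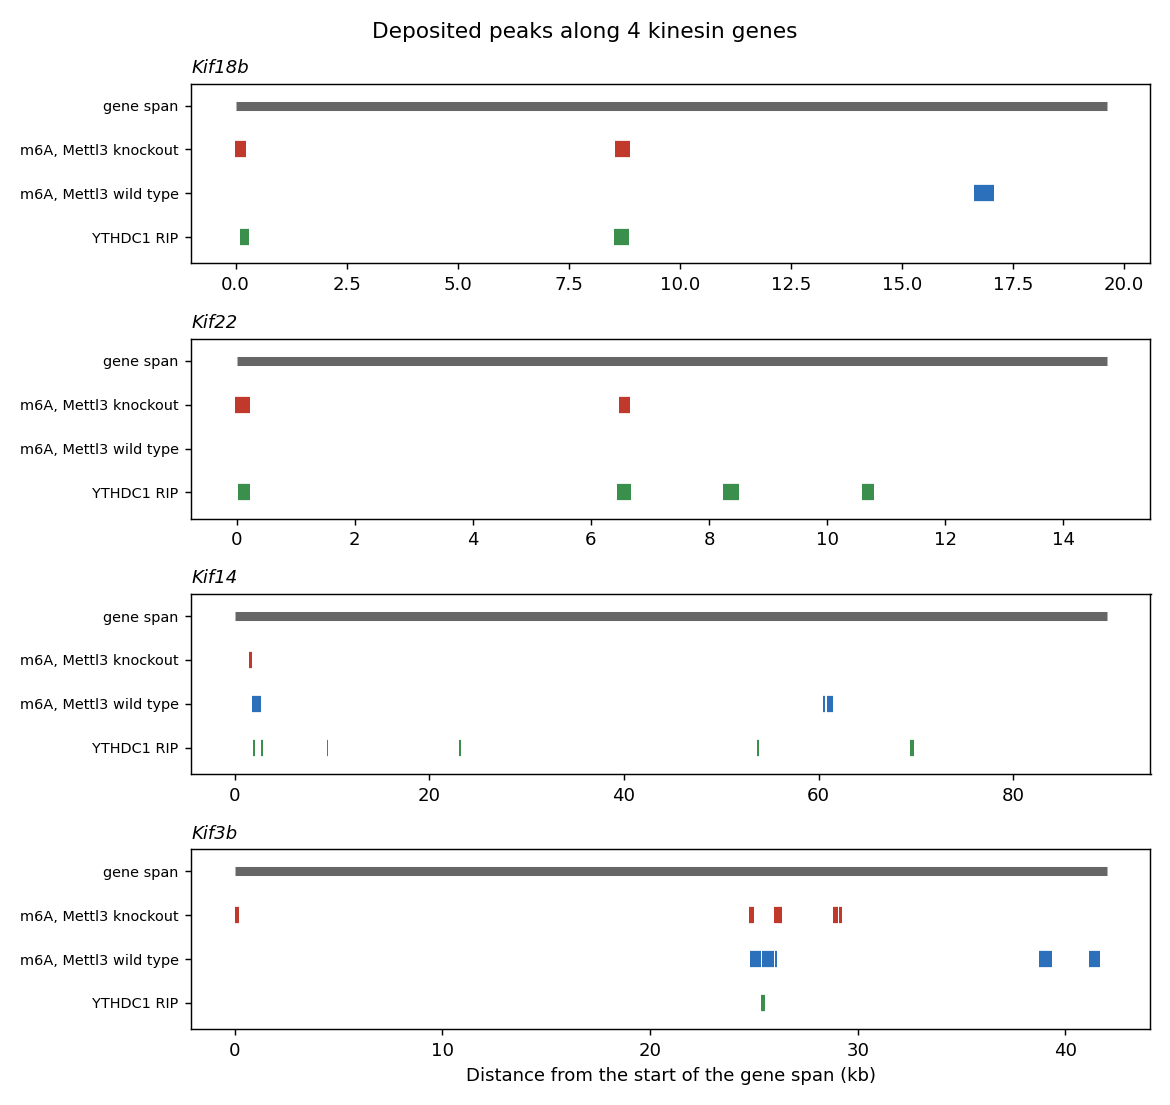
Peaks of the 3 lists (rows) along Kif18b, Kif22, Kif14 and Kif3b, drawn to scale by distance from the start of the gene span (horizontal axis, kb). Knockout m6A peaks stand at the start of Kif18b, Kif22 and Kif3b, RIP peaks lie under both knockout peaks of Kif18b and of Kif22, and Kif3b holds the interleaved m6A peaks of both genotypes.

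Among the transport kinesins, Kif3b held the most m6A peaks. With Kif3a it forms the motor of heterotrimeric kinesin-2, which carries cargo into cilia. Its 5 knockout peaks lay at chromosome 2, 153291401 to 153291600 (at the start), 153316151 to 153316400, 153317351 to 153317750, 153320201 to 153320450 and 153320501 to 153320650. Its 5 wild-type peaks lay at 153316201 to 153316750, 153316801 to 153317350, 153317401 to 153317500, 153330101 to 153330750 and 153332551 to 153333050. In the inner cluster, between 59.2 and 62.3% of the span, knockout and wild-type peaks overlapped by 200 bp and by 100 bp, whereas the start was marked in the knockout list and the 3′ end, with midpoints 2965 and 590 bp before it, in the wild-type list. Its single RIP peak was overlapped by the first 2 wild-type peaks, by 4 bp and 146 bp. At least 5 knockout peaks were found in 0.498% of all protein-coding genes, and at least 5 wild-type peaks in 1.1%, not matched for span. Some Kif3b peaks of the same list nearly adjoin, so these counts exceed the number of well separated stretches. The partner gene Kif3a had 2 knockout peaks, of which the wider measured 300 bp (chromosome 11, 53593851 to 53594150), no wild-type peak and 5 RIP peaks, and Kif3c, another kinesin-2, had no knockout peak, 2 wild-type peaks of 300 bp and no RIP peak. The gene 1110002L01Rik shares the position of both Kif3c peaks.

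The endosomal and vesicle carriers Kif16b, Kif13a, Kif13b, Kif1b and Kif1c each had at least 1 wild-type peak. Kif16b, which moves early endosomes, had 1 knockout peak (chromosome 2, 142712601 to 142712950) that overlapped the 750 bp wild-type peak (142712051 to 142712800) by 200 bp, deep in the gene at 66.8% of the span, and a second wild-type peak of 700 bp at the 3′ end (142619251 to 142619950). It also had 6 RIP peaks. Kif13a, a carrier of recycling endosomes, had no knockout peak and 3 wild-type peaks, which reached a width of 950 bp (chromosome 13, 46752001 to 46752950) and lay within 3388 bp of the 3′ end, and 5 RIP peaks. Kif13b, a vesicle carrier whose strand was not known here, had no knockout peak, 2 wild-type peaks of 950 bp each (chromosome 14, 64802951 to 64803900 and 64806001 to 64806950) and 9 RIP peaks. Kif1b, a carrier of mitochondria and vesicles, had no knockout peak and 1 wild-type peak of 350 bp, 3256 bp from the 3′ end, and 1 RIP peak. Kif1c, a related vesicle motor, had a 400 bp knockout peak (chromosome 11, 70728601 to 70729000), 3170 bp from the 3′ end. Its 450 bp wild-type peak lay 2200 bp away from the knockout peak and 5795 bp from the 3′ end. It also had 2 RIP peaks.

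The conventional kinesin heavy chains had RIP peaks and no m6A peaks with midpoints in their spans. Kif5b, the broadly expressed heavy chain, had 4 RIP peaks, the widest of 399 bp (chromosome 18, 6241120 to 6241518), in a stretch that also belongs to the span of Gm41664. Kif5c and Kif5a, the chains known mainly from neurons, had 3 and 2, the widest Kif5c peak measuring 294 bp (chromosome 2, 49722816 to 49723109). Kif17, a neuronal kinesin-2, had no peak in any list.

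Outside these classes, Kif24 held the widest wild-type peak of all kinesins. Kif24 acts at centrioles and restrains cilium formation. Its 1700 bp wild-type peak (chromosome 4, 41393601 to 41395300) lay beside its second one, of 150 bp, towards the 3′ end, and the wider of its 2 RIP peaks measured 1211 bp (41455134 to 41456344) and lay at 12.2% of the span. Kif7, the ciliary kinesin of Hedgehog signalling, had a 300 bp knockout peak (chromosome 7, 79702051 to 79702350) next to one of 100 bp, and a 650 bp wild-type peak 527 bp from the 3′ end (79698301 to 79698950). Kif26a, an atypical kinesin without motor ATPase activity, had a 300 bp knockout peak (chromosome 12, 112180651 to 112180950), 947 bp from the 3′ end, and 1 RIP peak. Kif21a and Kif21b, which restrain microtubule growth, had 2 RIP peaks and 1 RIP peak, and Kif9, of motile cilia, had 1. The Kif21a peaks measured 23 bp and 200 bp, and the wider one also lies in the span of Gm52215.

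Most wild-type m6A peaks of kinesins of known strand lay in the last 10% of the span, and all but 1 of the knockout peaks lay before it. Strand was known for 31 of the 38 genes. In the last 10% of the span lay 1 of 20 knockout peaks (5%, against 9.35% of knockout peaks in all protein-coding genes of known strand), 16 of 27 wild-type peaks (59.3%, against 43.3%) and 6 of 76 RIP peaks (7.89%, against 14%). Within 200 bp of the span start lay 5 knockout peaks (25%, against 28.8%), 1 wild-type peak (3.7%, against 3.22%) and 3 RIP peaks (3.95%, against 4.76%). The shares at the start were thus close to those of all protein-coding genes, while 16 of 27 kinesin wild-type peaks, several from the same gene, lay at the end. Among genes with spans between the kinesin quartiles, the last 10% held 8 of 12 kinesin wild-type peaks (66.7%), against 51.2% in all protein-coding genes of those spans. These counts depend on the distance chosen, since within 100 bp of the start lay 1 knockout peak and no wild-type or RIP peak, and within 5 kb of the 3′ end lay 4 knockout peaks. Median positions were taken from 0 at the start to 100 at the 3′ end. They were 60.8% of the span for the 20 knockout peaks and 94% for the 27 wild-type peaks. Over all protein-coding genes they were 17.5% and 86%. The knockout median fell between peaks of Kif3b, which held 5 of the 20, and does not describe the family. It was 1.22% in mitotic genes and 68.9% in transport genes. The gene table gives no exons, so whether a peak lies in an intron, a coding exon or an untranslated region was not determined.

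**Figure D3:**
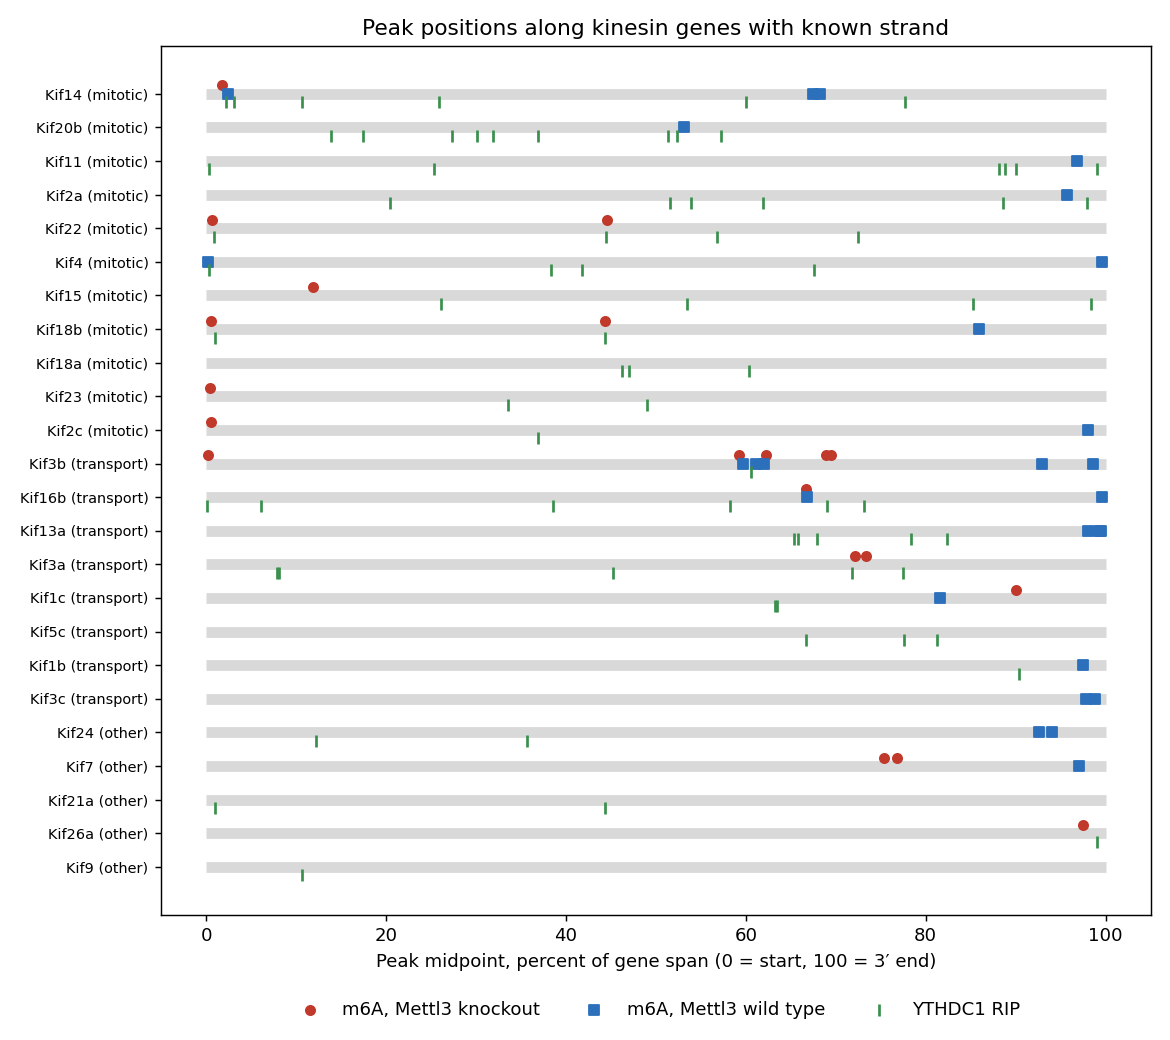
Position of each peak midpoint along the span of kinesin genes of known strand that hold a peak (horizontal axis, percent of span, from 0 at the start to 100 at the 3′ end), with knockout m6A peaks as circles, wild-type m6A peaks as squares and RIP peaks as ticks. Wild-type squares gather at the right edge, 16 of 27 in the last 10%, and 5 of 20 knockout circles stand at the left edge, 4 of them in mitotic genes.

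Peaks of the lists seldom fell on each other. Of 20 knockout peaks 3 overlapped a wild-type peak by at least 1 bp (15%, against 21.3% over protein-coding genes), and of 30 wild-type peaks 3 overlapped a knockout peak (10%, against 11.7%). They lay in Kif16b and Kif3b. A RIP peak was overlapped by 5 knockout peaks (25%, against 21.6%), in Kif18b, Kif22 and Kif3a, and by 4 wild-type peaks (13.3%, against 13.1%), in Kif14, Kif3b and Kif4. In the other direction 5 of 92 RIP peaks overlapped a knockout peak (5.43%, against 6.44%) and 3 a wild-type peak (3.26%, against 7.32%). The m6A and RIP samples came from polyA and total RNA, and how far this bears on the overlap was not tested.

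The RIP list marked kinesins along the body of the gene, much as it did protein-coding genes at large. Kinesin RIP peaks had a median width of 200 bp, against 203 bp for the whole list. Their median position was 51.5% of the span, against 47.4% over all protein-coding genes. The widest was the 5326 bp peak of Kif16b (chromosome 2, 142789648 to 142794973), followed by that of Kif24. Others among the 8 widest by gene lay in Kif20b (362 bp, chromosome 19, 34950157 to 34950518), Kif14 (335 bp, chromosome 1, 136535739 to 136536073), Kif18b (335 bp, chromosome 11, 102916279 to 102916613) and Kif3a (292 bp, chromosome 11, 53595412 to 53595703). Kif22 was the most densely marked, with 27.1 RIP peaks per 100 kb of span, and Kif1b the least among genes with any, with 0.761.

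Counted over all peaks, 1 or 2 more mitotic than transport kinesins had a peak in each list, and this order did not hold under every setting. A knockout m6A peak was found in 6 of 13 mitotic genes (46.2%, exact Clopper-Pearson 95% interval 19.2 to 74.9%) and 4 of 13 transport genes (30.8%, 9.09 to 61.4%). Wild-type m6A peaks marked 8 mitotic genes (61.5%, 31.6 to 86.1%) and 7 transport genes (53.8%, 25.1 to 80.8%), and RIP peaks marked 11 mitotic genes (84.6%, 54.5 to 98.1%) and 10 transport genes (76.9%, 46.2 to 95%). These intervals cover the counting of genes only, and the difference between the classes was not tested. With only peaks at or above the median width of their list, wild-type peaks marked 4 mitotic and 5 transport genes, and RIP peaks marked 6 of each. The other 12 kinesins had 2 genes with a knockout peak, 2 with a wild-type peak and 5 with a RIP peak.

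Where and how wide the peaks of each class were is given as a description without a test. Of the 8 knockout peaks in mitotic genes 4 lay within 200 bp of the span start, in Kif18b, Kif22, Kif23 and Kif2c, against 1 of 9 in transport genes, in Kif3b. In the last 10% of the span lay 4 of 10 wild-type peaks of mitotic genes and 9 of 14 of transport genes. Wild-type peaks had a median width of 300 bp in mitotic genes and 550 bp in transport genes. RIP peaks numbered 47 in mitotic genes, or 8.11 per 100 kb of span, and 38 in transport genes, or 2.99 per 100 kb. Knockout peaks numbered 8 in mitotic and 9 in transport genes (1.38 and 0.709 per 100 kb), and wild-type peaks 11 and 16 (1.9 and 1.26 per 100 kb). Mitotic spans summed to 579574 bp, against 1269140 bp for transport genes, so the RIP density differs by more than the number of RIP peaks. In both m6A lists, number and density put the classes in opposite order. RNA abundance was not measured in these lists, and its part in any of these values was not tested.

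**Figure D4:**
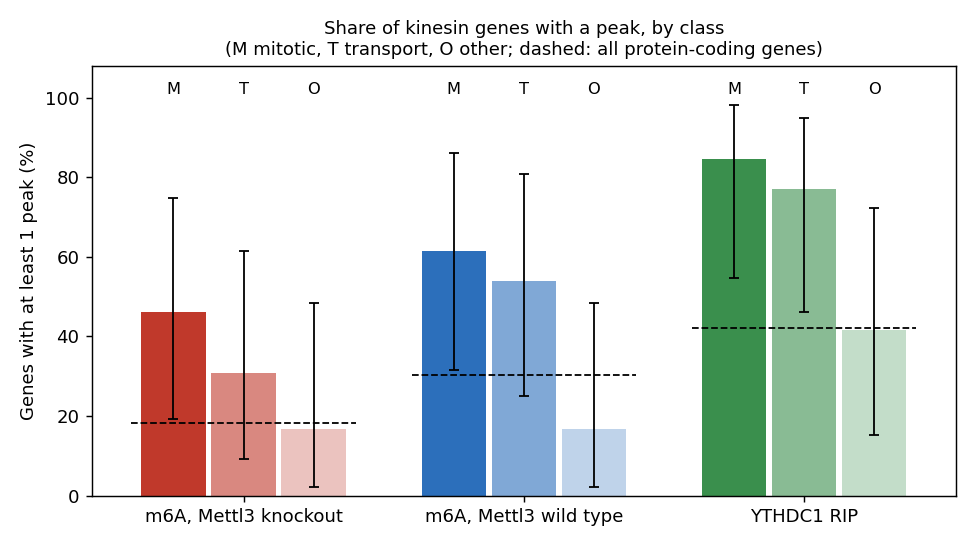
Share of genes with at least 1 peak (vertical axis, percent) among 13 mitotic (M), 13 transport (T) and 12 other (O) kinesins in each list, with exact 95% binomial intervals as bars and the share of all protein-coding genes as dashed lines. The bars show 6 and 4 genes with a knockout peak, and intervals in the RIP list of 54.5 to 98.1% and 46.2 to 95%.

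Other genes of the same machinery had peaks as follows. The background shares here and in the next paragraph were not matched for span. Of 6 kinesins with other names, 3 had a knockout m6A peak, 4 a wild-type m6A peak and 5 a RIP peak, where all protein-coding genes gave 18.2%, 30.3% and 42.2%. The widest wild-type peaks lay in the closely related minus-end motor genes Kifc5b (950 bp) and Kifc1 (800 bp), between which reads may be shared, and in Stard9 (750 bp). The widest RIP peaks were those of Kifc3 (5323 bp), Kifc1 (438 bp) and Cenpe (415 bp), the kinesin of the kinetochore. Of 20 kinesin light chains, partners and cargo adaptors, 6 had a knockout peak, 12 a wild-type peak and 16 a RIP peak (30%, 60% and 80%, against 18.2%, 30.3% and 42.2%). Wild-type peaks were widest in Trak1 (1500 bp) and Trak2 (1400 bp), which link kinesin to mitochondria, and in the scaffold gene Mapk8ip3 (1100 bp). RIP peaks were widest in the light chain gene Klc1 (323 bp, 1 of 9), in Arl8b (319 bp) and in Kifap3 (312 bp), the third subunit of the Kif3 motor.

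Of 20 spindle and midbody partners, 9 had a knockout m6A peak, 9 a wild-type m6A peak and all 20 a RIP peak (45%, 45% and 100%, against 18.2%, 30.3% and 42.2% of all protein-coding genes). Wild-type peaks were widest in Aurkb (650 bp) and Incenp (600 bp) of the chromosomal passenger complex, followed by Cit and Tpx2 (450 bp each). RIP peaks were widest in Ect2 (495 bp, 1 of 10), Prc1 (383 bp) and the citron kinase gene Cit (375 bp). Racgap1, which joins Kif23 in centralspindlin, had 1 knockout peak, no wild-type peak and 2 RIP peaks, the same m6A pattern as Kif23. This pattern was not particular to centralspindlin, since Bub1, Bub1b, Plk1 and Prc1 also had knockout peaks and no wild-type peak. Of 24 genes of cytoplasmic dynein and dynactin, the minus-end motor, 16 had a knockout peak, 13 a wild-type peak and 19 a RIP peak (66.7%, 54.2% and 79.2%, against the same shares). The widest wild-type peaks lay in Bicd2 and Dynlt1b (900 bp each) and Nde1 (700 bp), and the widest RIP peaks in Dctn4 (1280 bp), Dync1i2 (1154 bp) and Dync1i1 (660 bp).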

How the data were processed

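Per the labels' protocols, Halo-tagged YTHDC1 was pulled down without nuclease or fragmentation; they describe no m6A precipitation. The authors deposited 3 peak lists with chromosome, start and end, and the submitters' processing notes give mm10 and name MACS2 2.1.2, HISAT2 2.2.0, STAR 2.7, SAMtools 1.9, Trim Galore 0.6.4 and bcl2fastq without their roles. Thresholds and any pooling of replicates: not given in the sources used here. All m6A peaks start and end on a 50 bp grid (100%) against 0.513% of RIP peaks, a difference in how positions were written that can affect overlaps.

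Samples were grouped by title. Peaks were counted by midpoint in RefSeq spans (Python 3.11.15, pandas 2.3.3, SciPy 1.17.1), a midpoint in several spans counting for each gene. Coordinates are counted from 1. Strand came from the promoter table. Counting code was tested on simulated data. The members, classes and lists were chosen with earlier results of these data known. Every kinesin was named, with coordinates for the widest peak of up to 8 genes per list (ties included), for all peaks of genes where the m6A lists overlap, and for up to 3 genes of other lists their widest width. Start peaks, inner peaks of Kif22, Racgap1, the partners with its m6A pattern and the motifs were chosen after values were seen. Alternatives are given in the closing section.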

Additional observations from a re-analysis of the deposited data

How the results depend on the processing

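Across 31 counts, shares and differences, 76 of 100 alternative values stayed within 1.5 times the reported count (for background shares, within the exact interval) or kept their sign, 23 moved and 1 changed direction. Counting any overlap, extending spans by 500 bp, assigning each peak to the shortest gene or moving Kif2a and Kif21a/b between classes moved no count by more than 1.5 times. Keeping peaks at or above each list's median width left 11 kinesin genes with 18 wild-type m6A peaks (4 mitotic, 5 transport) and 13 with 22 RIP peaks (6 mitotic, 6 transport). The mitotic minus transport share of genes thereby turned to -7.69 percentage points in the wild-type list, against 7.69 over all peaks, and was 0 in the RIP list; in the knockout list it was 7.69, against 15.38. With Kif2a in neither class and Kif21a and Kif21b as transport, the transport class became the larger. Then 7 mitotic and 7 transport genes had a wild-type peak, and 10 and 12 a RIP peak. The mitotic minus transport share of genes kept its sign, at 23.33 (knockout), 11.67 (wild-type) and 3.33 (RIP) percentage points. Requiring 50% overlap left 2 wild-type peaks on RIP peaks. The background rose to 22.9% (knockout m6A), 41.6% (wild-type m6A) and 57.7% (RIP) for genes of kinesin-like span, and to 35.2%, 58.6% and 81.7% for genes marked in any list, where kinesins gave 41.4%, 58.6% and 89.7%. The settings for position, and for the class difference apart from the moved genes and the density, were chosen after seeing the data. Within 100 bp of the start lay 1 knockout, 0 wild-type and 0 RIP peaks, within 500 bp 5 RIP peaks, and by nearest edge 5 RIP peaks. Within 5 kb of the 3′ end lay 4 knockout peaks. At kinesin-like span, the last 10% of the span held 12.2% of all knockout and 51.2% of all wild-type peaks. The cause of these moves was not tested, apart from settings that keep fewer peaks or genes. No paired analysis was possible because the lists hold no values per replicate, and leaving out a replicate was not possible for the same reason.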

Other observations

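Several peaks lay just outside kinesin spans, next to a neighbouring gene. A 500 bp knockout m6A peak crossed the start of Kif15 (chromosome 9, 122950751 to 122951250, midpoint 81 bp upstream) and overlies the neighbour 1110059G10Rik, with a 250 bp wild-type m6A peak (midpoint 206 bp upstream) and a 200 bp RIP peak (204 bp upstream) at the same place. Upstream of Kif4 a 250 bp knockout peak and a 150 bp wild-type peak shared a midpoint 190 bp before the start, within the span of Pdzd11. A 350 bp knockout peak lay 77 bp beyond the end of Kif5a, in the span of the dynactin gene Dctn2. A 282 bp RIP peak crossed a span end of Kif20a, with its midpoint 49 bp outside, in the span of Cdc23. A 231 bp RIP peak crossed a span end of Kif28, with its midpoint 103 bp outside, in the span of Ahctf1. Without strand these peaks cannot be assigned to either neighbour. Of the related loci Kif4-ps, Kif22-ps, Gm4961 (a relative of Kif2c by its synonym) and the antisense gene Kif16bos, Gm4961 held 1 RIP peak and the other 3 held no peak in any list.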
